A study of Mus musculus and Miniopterus natalensis with 16 samples.

Results

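The forelimb (FL) and hindlimb (HL) autopods of the same Natal long-fingered bat (Miniopterus natalensis) embryos were compared at Carollia stage 16 (CS16). The sample labels give 4 CS16 FL and 4 CS16 HL arrays, 8 of the 16 arrays of the series, and the other 8 hold the same limbs at stage 17 (CS17). Each bat sample joined the left and right autopods of 1 embryo of a wild-caught female, cut at the future wrist or ankle so that the upper and lower limb segments were left out. No group carried a treatment or an altered gene. On every array the bat RNA was labelled with Cy3 and mixed with Cy5-labelled RNA of a pool of FL autopods from 24 mouse embryos at E13.5, and both were hybridised to mouse oligonucleotide probes. The FL and HL of a repeat came from 1 embryo and shared a labelling batch, so the 4 differences within embryos were also differences within batches.

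Values are log2 ratios of bat over mouse, and a limb difference is the log2 ratio of the FL minus that of the HL. Dye always followed species and all probes were mouse, so in levels against the mouse pool species, dye and probe match cannot be told apart. The pool held FL tissue only, at a stage that the study treats as equivalent to CS17. A CS16 level thus also holds a difference of stage, and an HL level one of limb. The deposited table states neither the base nor the sign of its ratios. Read as log2 with the sign turned, 33 of the 35 probes in the study's supplementary gene list had a row whose CS16 limb fold, CS17 limb fold and CS17 FL to mouse fold all lay within 0.05 of the listed ones, against 4 of 35 with the sign as deposited. Positive values therefore mean higher in the bat, or higher in the FL for a limb difference. This direction is likely but not stated, and the wording of the labels would exchange FL and HL throughout and turn every level above the mouse pool into one below it. A row took a gene name only where it was the single match, which gave names to 30 of the 35 probes, including all 6 that the study marks for CS16. Their mean limb folds at CS16 and CS17 and their CS17 FL folds thus served to name them. The levels of the CS16 limbs against the mouse and the spread between embryos did not serve for this. The list still favours rows far from the mouse pool, since many of its probes are marked for the CS17 FL against the mouse FL. For 5 of the 30 names, further rows lay within 0.1 of the listed folds. With the named row counted, there were 7 such rows for Lnp, 4 for Taok3, 3 for Dab2 and 2 each for Olfr1303 and 4930473A06Rik. In the study's list, Meis2, Ajap1, Npm1, Prkcd, Casc1 and Rbm10 are among the probes annotated by the study's own sequence alignment. The list gives no similarity to bat sequence for Ajap1, Prkcd, Sbsn, Hrk, Casc1 and Rbm10, among others. A value was present on all arrays for 13988 of 37440 rows, and with identical rows counted once 12656 features were tested. All other rows carry a number and no gene name, so pathways, cell type markers and most limb genes could not be followed.

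At about this stage the digits condense in the hand and foot plates. Bat hand digits lengthen and keep the tissue between them, which forms part of the wing membrane, while the foot loses its webbing as most mammalian feet do. Homeobox transcription factors set position along the limb. Meis proteins mark the proximal limb bud and the Hoxd genes at the 5′ end of their cluster act in the distal limb, while hyaluronan, link protein and matrilins build the cartilage matrix of the digits.

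The CS16 FL and HL were close to each other. The median size of the limb difference was 0.09 on the log2 scale with a median standard error of 0.12, and 95% of features differed by less than 0.30. The largest mean fold was 1.98 in favour of the FL and 2.10 in favour of the HL. With limma's moderated test within embryos and Benjamini-Hochberg adjustment, 0 of 12656 features (0.0%) had an adjusted p under 0.05, and the smallest was 0.597. Before adjustment 634 features (5.01%) had a p under 0.05, of which 359 (2.84%) were higher and 275 (2.17%) lower in the FL, against 218 higher and 456 lower once each array was centred on its median. The 95% interval of the difference lay within a 1.5-fold change in either direction for 11521 features (91.0%). For the other 1135 features these 4 embryos set no such limit. In whole autopods, fewer cells of a type and less RNA per cell cannot be told apart.

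A mean limb fold above 1.5 was found for 28 features (0.221%), 12 higher (0.0948%) and 16 lower (0.126%) in the FL, and centring the arrays on their medians gave 10 and 23. Leaving out repeat 1, 2, 3 or 4 gave 47, 64, 55 or 72 such features, and without repeat 3 more were higher (30) than lower (25) in the FL. Of the 28 features, 22 had the same sign in all 4 embryos, against 1848 of all features (14.6%, with 9.78% higher and 4.82% lower in the FL), and 14 had FL and HL arrays that did not overlap, against 644 of all features (5.09%, with 3.48% higher and 1.6% lower in the FL). Both measures come from the contrast that picked these features, so nothing is read from their counts. The spread of the limb difference between embryos was also wide in this set, with a median SD of 0.52 against 0.22 over all features. Picking by the size of the mean favours features with a wide spread, so nothing is read from this SD either. The 6 probes marked by the study for CS16 were all among the 28, and the study chose them on these arrays.

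**Figure D1:**
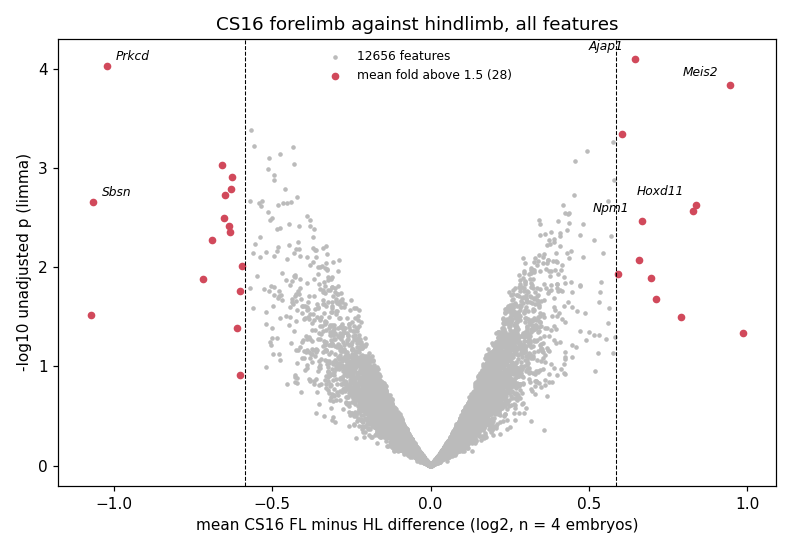
Each point is 1 of 12656 features, with the mean CS16 FL minus HL difference (log2, 4 embryos) on the x axis and −log10 of the unadjusted p from limma on the y axis. Dashed lines mark a 1.5-fold difference. The 28 features beyond them are red, and the 6 probes that the study marks for CS16 are named.

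Meis2 encodes a homeodomain protein of the TALE class. The row named from probe M400017713, which the study places in the 5′ untranslated region of the transcript, was above the mouse pool in both limbs. In the CS16 FL its log2 ratio was 1.73, 1.91, 2.07 and 2.70 in embryos 1 to 4, and in the HL it was 1.19, 1.39, 0.84 and 1.20. Every FL array lay above every HL array. The limb difference was 0.95 (standard error 0.18, 95% interval 0.56 to 1.33, adjusted p = 0.621 from limma), a fold of 1.93, and within embryos it was smaller in embryos 1 and 2, at 0.54 and 0.52, than in embryos 3 and 4, at 1.22 and 1.501. The exact two-sided sign-flip test over the 4 embryos gave p = 0.125, the smallest value that 4 pairs allow, here and for every other feature with the same sign in all 4 embryos. The primers with which the study amplified the region of this probe are shown because they fix where in Meis2 the value was read.
Forward primer: ctatggccaccacgacttc
Reverse primer: tgtcagtaggtgttggcagg

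Hoxd11, a 5′ member of the Hoxd cluster, was above the mouse pool in the FL and below it in the HL of every CS16 embryo. The FL ratios were 0.59, 0.22, 0.96 and 0.44, and the HL ratios were -0.21, -0.21, -0.64 and -0.07. The groups did not overlap, and the limb difference was 0.84 (standard error 0.22, 95% interval 0.36 to 1.31, adjusted p = 0.850 from limma), a fold of 1.79. Embryo 3 had both the highest FL and the lowest HL value, a difference of 1.61 against 0.43 to 0.80 in the other embryos. Without repeat 3 the mean difference was 0.58. The name rests on the study's gene list, and another of its tables gives the same probe number to the 3′ coding part of Meis2. The study's main text gives that part of Meis2 a different probe number and places a probe differing between the limbs at the Hoxd11 locus. Lnp, a gene beside the Hoxd cluster that is linked to digit patterning in the mouse, stood well above the mouse pool in both limbs, at 1.98 ± 0.19 (SD, n = 4) in the FL and 1.78 ± 0.39 (SD, n = 4) in the HL. Its limb difference was 0.20 with a 95% interval of -0.16 to 0.55, within a 1.5-fold change, and embryo 2 ran opposite to the others.

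**Figure D2:**
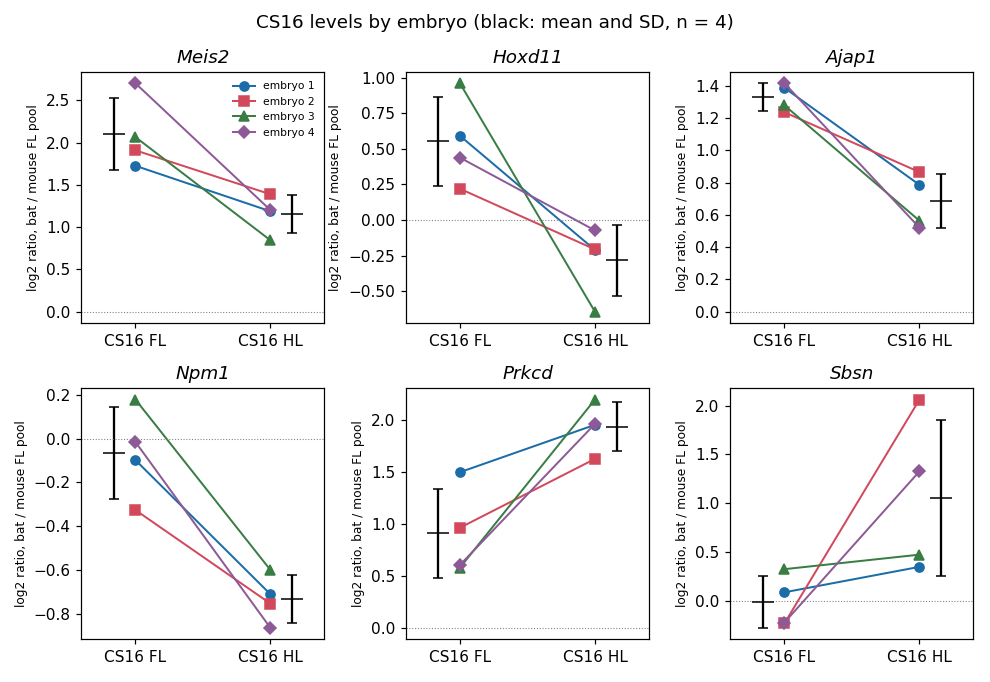
Log2 ratio of bat over the mouse FL pool (y axis) in the CS16 FL and HL for the 6 probes that the study marks for CS16. Coloured lines join the limbs of 1 embryo, and black bars give the mean and SD of 4 arrays. Meis2, Hoxd11, Ajap1 and Npm1 slope down from FL to HL and Prkcd and Sbsn slope up in all 4 embryos, and the dotted line marks the level of the mouse pool.

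Among genes of matrix and adhesion, Ajap1, a transmembrane protein of adherens junctions, had the smallest unadjusted p of all features (8.00e-05 from limma, adjusted p = 0.597). It was above the mouse pool in both limbs. The FL ratios of 1.39, 1.24, 1.28 and 1.42 lay within a narrow band, and the HL ratios were 0.79, 0.87, 0.56 and 0.52. The groups were far apart for their spread, with a limb difference of 0.65 (standard error 0.11, 95% interval 0.40 to 0.89), a fold of 1.56. The difference was 0.60, 0.37, 0.72 and 0.90 in embryos 1 to 4.

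Hapln1, the link protein that holds hyaluronan and proteoglycans together, was near the mouse level in both limbs at CS16, at 0.25 ± 0.17 (SD, n = 4) in the FL and -0.03 ± 0.10 (SD, n = 4) in the HL. The FL was the higher limb in all 4 embryos, by 0.14 to 0.46, although the groups overlapped. The mean difference of 0.28 had a 95% interval of 0.04 to 0.52, so a difference above 1.5-fold lay outside it (adjusted p = 0.942 from limma). Matn1, the cartilage matrix protein matrilin 1, was below the mouse pool in both limbs, at -0.60 ± 0.40 (SD, n = 4) in the FL and -0.28 ± 0.12 (SD, n = 4) in the HL. Its limb difference of -0.33 had an interval of -0.72 to 0.07 and came mainly from embryo 2, where it was -0.95. Both cartilage genes were thus measured, and their limb differences had opposite signs.

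Prkcd encodes protein kinase C delta, a kinase with a part in apoptosis. Its row was above the mouse pool in both limbs and higher in the HL. The FL ratios were 1.495, 0.96, 0.58 and 0.60 in embryos 1 to 4, and the HL ratios were 1.95, 1.62, 2.19 and 1.96. No FL array reached an HL array. The limb difference was -1.02 (standard error 0.18, 95% interval -1.41 to -0.63, adjusted p = 0.597 from limma), which is 2.03-fold in favour of the HL. As for Meis2, embryos 3 and 4 differed most, by -1.61 and -1.36, against -0.46 and -0.66 in embryos 1 and 2. Hrk, a BH3-only protein that promotes apoptosis, was also lower in the FL in 3 of 4 embryos, with a mean difference of -0.35 (95% interval -0.62 to -0.08, adjusted p = 0.942 from limma). Taok3, a kinase of the Ste20 family, was at 0.53 ± 0.20 (SD, n = 4) in the FL and 0.61 ± 0.18 (SD, n = 4) in the HL. Its difference of -0.08 had an interval of -0.33 to 0.16, which lies within 1.5-fold.

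Npm1, the nucleolar protein nucleophosmin, was close to the mouse level in the FL and below it in the HL. The FL ratios were -0.10, -0.33, 0.18 and -0.02, and the HL ratios were -0.71, -0.75, -0.60 and -0.86. The groups did not overlap and the embryos were alike, with differences of 0.61, 0.43, 0.78 and 0.85. The mean was 0.67 (standard error 0.18, 95% interval 0.27 to 1.07, adjusted p = 0.870 from limma), a fold of 1.59.

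Of the other genes of chromatin and RNA, the splicing regulator Rbm10 came next, with a difference of 0.57 (95% interval 0.21 to 0.93, adjusted p = 0.902 from limma) and the FL higher in all 4 embryos. The groups still overlapped, because the HL of embryo 2 was at 0.81 while the other HL arrays lay between -0.19 and 0.01. The histone row Hist1h2ao was below the mouse pool in both limbs and less so in the FL, at -1.08 ± 0.26 (SD, n = 4) against -1.503 ± 0.24 (SD, n = 4). Its difference was 0.92 and 0.73 in embryos 3 and 4 but only 0.04 and 0.01 in embryos 1 and 2. A second Hist1h2ao probe in the study's list matched 2 rows and so took no name. The list gives that probe smaller limb folds at CS16 and CS17. Secisbp2l, which belongs to the SECIS-binding family, and the zinc finger gene Zfp800 gave limb differences of both signs, between -0.90 and 0.92 and between -1.32 and 0.67.

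Sbsn encodes suprabasin, which is made in the differentiating epidermis, and it was the only named marker of that tissue. The FL ratios lay around the mouse level at 0.08, -0.23, 0.32 and -0.23, while the HL ratios were 0.35, 2.06, 0.47 and 1.33. The groups were apart only by a narrow margin, since the lowest HL value of 0.35 stood beside the highest FL value of 0.32. The difference was -0.26, -2.30, -0.15 and -1.55 in embryos 1 to 4, so embryos 2 and 4 set the mean of -1.06 (standard error 0.28, 95% interval -1.66 to -0.46, adjusted p = 0.850 from limma). Without repeat 2 the mean was -0.65. How much epidermis each autopod held was not measured, and its part in the other differences was not tested.

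The 24 named rows that the study does not mark for CS16 had limb differences between -0.43 and 0.57, with a median of -0.03, beside a median of 0.02 over all features. None of these 24 had a fold above 1.5, and 0 had an adjusted p under 0.05 from limma, while at an unadjusted p under 0.05 there were 5 with the FL higher and 2 with the HL higher, beside 2.84% and 2.17% of all features. For 10 of the 24 the 95% interval lay within a 1.5-fold change. These rows were named by matching listed CS16 folds, so their range and the lack of folds above 1.5 were largely set by the list. The rows at the ends were Rbm10 and the RIKEN gene 1700125D06Rik. The latter was far above the mouse pool in both limbs and lower in the FL of every embryo, with FL ratios of 2.19, 2.02, 2.04 and 1.94 and HL ratios of 2.89, 2.50, 2.25 and 2.29. Its difference was -0.43 (95% interval -0.80 to -0.07, adjusted p = 0.942 from limma), and the groups did not overlap.

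Several rows had high ratios in both limbs. The study marks all rows named in this paragraph for the CS17 FL against the mouse FL, so levels far from the mouse pool are favoured by that choice. Kpna3, an importin of nuclear transport, was at 2.24 ± 0.29 (SD, n = 4) in the FL and 2.21 ± 0.49 (SD, n = 4) in the HL. Its limb difference of 0.03 had a 95% interval of -0.51 to 0.56, and its sign was negative in embryo 3 alone, at -0.88. Casc1 was at 2.29 ± 0.21 (SD, n = 4) in the FL and 2.61 ± 0.20 (SD, n = 4) in the HL. BC049702 was at 2.01 ± 0.18 (SD, n = 4) in the FL and 1.65 ± 0.23 (SD, n = 4) in the HL, with the FL higher in all 4 embryos. Syt13, a synaptotagmin, had limb differences of both signs, which were 0.49 and 0.42 in embryos 1 and 2 and -1.17 and -0.60 in embryos 3 and 4. At the low end, the pseudogene Gm10059 was at -1.45 ± 0.23 (SD, n = 4) in the FL and -1.98 ± 0.45 (SD, n = 4) in the HL, and Ubr2, a ubiquitin ligase, was at -1.38 ± 0.29 (SD, n = 4) and -1.75 ± 0.35 (SD, n = 4). The order of neighbouring rows in the plot of limb differences by embryo cannot be read as an order of effects, because most of their intervals overlap.

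**Figure D3:**
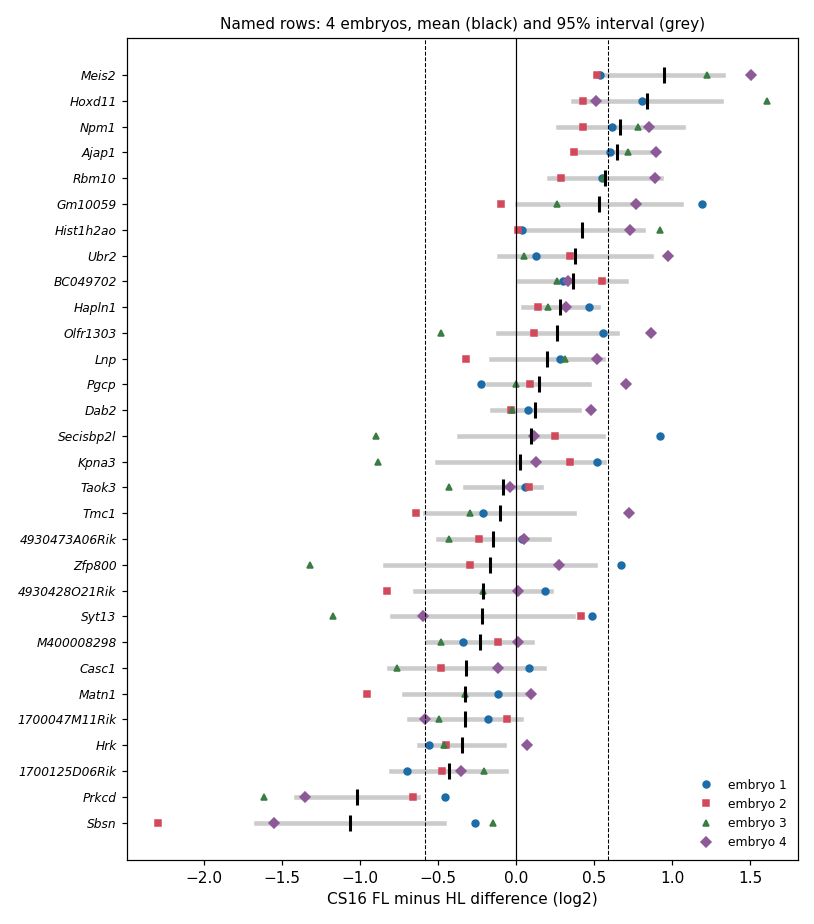
CS16 FL minus HL difference (log2, x axis) of the 30 named rows, sorted by their mean. Coloured symbols are the 4 embryos, black ticks the mean and grey bars the 95% interval from limma, and dashed lines mark a 1.5-fold difference. Meis2 is at the top with 0.95 and Sbsn at the bottom with -1.06.

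Of the 4 rows without a name that the rule picked, 15384 and 30986 rested on single arrays, and 36494 in part. Feature 15384 had the largest difference of all, -1.07 (standard error 0.44, adjusted p = 0.958 from limma). Its HL ratios were 0.48, 0.21, 0.49 and 3.50, so the array of embryo 4 alone made the mean, which was -0.21 without repeat 4. Feature 16617, the next row without a name in that direction with 1 sign in all embryos, differed by -0.72, with -0.50, -0.13, -0.83 and -1.42 in embryos 1 to 4. In the other direction, feature 36494 differed by 0.83, with FL ratios of -0.07, 1.58, 0.02 and -0.01, and by 0.46 without repeat 2. Feature 30986 differed by 0.79, with FL ratios of 0.43, -0.11, 2.05 and 0.03, and by 0.16 without repeat 3. Leaving out any 1 repeat left Ajap1 between 0.56 and 0.74 and Npm1 between 0.61 and 0.75. The study chose Ajap1 and Npm1 on these arrays by a test as well as by fold. The rows without a name were picked by size and sign alone, so nothing is read from the contrast.

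Single embryos often passed a 1.5-fold limb difference that the others did not share. Between 488 and 770 features did so in each of the 4 embryos (3.86% to 6.08%). Only 5 features passed it in the same direction in 3 embryos, and 0 did in all 4. These 5 were Ajap1, Npm1, Prkcd and a pair of rows without a name, 1 in each direction, and they were singled out after their values were seen. Meis2 and Hoxd11 passed it in fewer embryos, although their means were larger than those of Ajap1 and Npm1.

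The limb difference was then set beside that of CS17, where other embryos were measured against the same mouse pool. The difference between stages passed limma's test at 0 of 12656 features (0.0%) with an adjusted p under 0.05, the smallest being 0.218, while 1014 features (8.01%) had an unadjusted p under 0.05. Meis2 was higher in the FL by 0.95 at CS16 and 2.18 at CS17, so the stages differed by 1.24 (standard error 0.25), with an adjusted p of 0.242 from limma. Its HL level was 1.16 ± 0.23 (SD, n = 4) at CS16 and 1.13 at CS17, whereas its FL level was 2.10 ± 0.42 (SD, n = 4) and 3.31. Hoxd11 was higher in the FL by 0.84 at CS16 and 1.22 at CS17, and the change of 0.38 had an adjusted p of 0.805 from limma. Ajap1 differed by 0.65 at CS16 and 0.25 at CS17, Npm1 by 0.67 and -0.12, and Sbsn by -1.06 and -0.29, with adjusted p-values from limma between 0.542 and 0.659 for the change. The study marks Ajap1, Npm1 and Sbsn for CS16 and not for CS17, so larger differences at CS16 are favoured by that choice.

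Prkcd had opposite limb differences in every embryo of the stages, -1.02 at CS16 and 0.49 at CS17. Its HL level was 1.93 ± 0.23 (SD, n = 4) at CS16 and 1.10 at CS17, and its FL level 0.91 ± 0.43 (SD, n = 4) and 1.59. Rbm10 had the reverse pattern, with 0.57 at CS16 and -0.81 at CS17. Both changes had an adjusted p of 0.218 from limma. The study marks Prkcd for CS16 and not CS17, and Rbm10 for CS17 and not CS16. Both rows were also named by their limb folds at these stages, so their changes are partly set by those choices. Over all features, opposite signs in every embryo of both stages were found for 151 features (1.19%) and the same sign in every embryo for 139 (1.1%). The cartilage genes had small differences at CS16 and larger ones at CS17, with Matn1 at -0.33 and 0.87 and Hapln1 at 0.28 and 0.72. The adjusted p for the change was 0.242 and 0.563 from limma. The study marks both probes for CS17 and not for CS16, so larger differences at CS17 are favoured by that choice. Of the 28 features with a mean fold above 1.5 at CS16, 3 had one at CS17 as well, where 78 of all features (0.616%) did. All 3 were higher in the FL at CS16, and of these Meis2 and Hoxd11 kept their direction at CS17 while a row without a name was lower in the FL by 0.61 there. The CS17 difference had the same sign as at CS16 for 9 of the 28 features and the opposite sign for 19, beside 6165 and 6491 of all features.

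**Figure D4:**
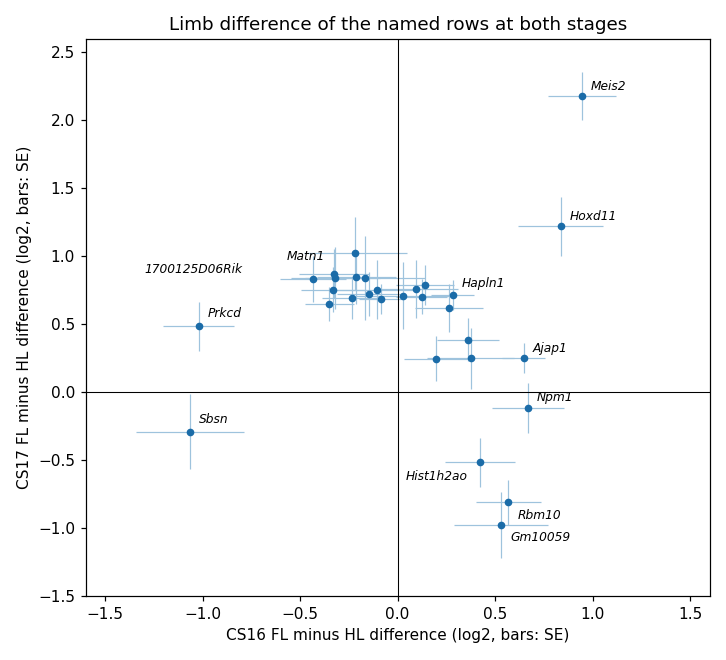
Limb difference (log2, FL minus HL) of the 30 named rows at CS16 (x axis) and CS17 (y axis), with standard errors from limma as bars. Meis2 and Hoxd11 lie in the upper right, Prkcd in the upper left with -1.02 and 0.49, and Rbm10 in the lower right with 0.57 and -0.81. The study marks 21 of the 30 probes for their CS17 differences, so the crowd of points at positive CS17 values is set by that choice.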

How the data were processed

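The arrays were scanned by the authors, whose methods name background subtraction, normalisation, a quality filter on spots, filling in of missing values, a batch adjustment and a filter on variance. Which of these steps the table includes is not given in the sources used here. Each row held values on all arrays or on none, so any values that were filled in cannot be told from measured ones. The deposited values are log2 ratios, 1 column per array, with base and direction settled as described above, and centring unknown. After turning the sign, the CS16 arrays had medians of -0.13 to -0.04. Precision is limited by how many arrays there are, and no scanner signals were used here.

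Limb differences were fitted by lmFit and eBayes of limma 3.58.1, run in R 4.3.3, over all 16 arrays, with the embryo as a block and a limb term for each stage, which left 6 residual and 6.35 prior degrees of freedom. P-values were adjusted over 12656 features. The numbers pair the limbs because the labels and the study's sample table tie a stage and repeat to 1 embryo. Deviations of paired arrays correlated at -0.37 to -0.08 at CS16 and -0.38 to 0.08 at CS17. The fit was tested on simulated data. Named were all probes with a single matching row and, of rows without a name, the 2 in each direction with the largest difference among those of 1 sign in all embryos. Members, lists and tests were chosen with earlier results of these data known. Alternatives were other blocks, CS16 arrays alone, centred or quantile-normalised arrays, variable features only, robust moderation, all rows and each repeat left out. Intervals hold for single features. Tables and plots used Python 3.11.15, pandas 2.3.3 and matplotlib 3.10.9. The study's DEDS package was not used. The other supplied file is a key of sample names and holds no values.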

Additional observations from a re-analysis of the deposited data

Results flagged for a closer look

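Dixon's test marked 2 of 74 groups of 4 values, where chance marks about 1 in 20. They were the CS16 FL ratios of feature 36494, with embryo 2 at 1.58 against -0.07 to 0.02 in the others (gap over range 0.949), and the CS16 HL ratios of feature 15384, with embryo 4 at 3.50 against 0.21 to 0.49 (gap over range 0.916).

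The limb difference had opposite signs in every embryo of CS16 and CS17 for 5 named rows, beside 151 of all 12656 features (1.19%). The study listed the named rows from these same arrays, so nothing is read from this count. The change from CS16 to CS17 was 1.51 for Prkcd, 1.27 for 1700125D06Rik, 1.08 for 1700047M11Rik, -0.94 for Hist1h2ao and -1.38 for Rbm10. The test of this change by limma gave adjusted p-values of 0.218, 0.218, 0.242, 0.434 and 0.218 in that order, so it did not pass for any of them. The second Hist1h2ao probe of the study's list had no named row and could not be followed.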

How the results depend on the processing

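A single alternative, testing only the 5200 most variable features, gave any with an adjusted p under 0.05 between the CS16 limbs. There 8 passed, of which 5 also had an adjusted p under 0.01 together with a 1.5-fold difference. In that set 267 had an unadjusted p under 0.05, 109 higher and 158 lower in the FL, 3817 had an interval within 1.5-fold, and 34 limb differences changed between stages. Among them Meis2, Hoxd11, Prkcd and Sbsn passed with adjusted p-values of 0.00105, 0.0131, 2.22e-04 and 9.63e-05 from limma, as did features 36494, 30986 and 15384, and Ajap1 (0.241) and Npm1 (0.227) did not. Limb differences help a feature into that set, so this is no separate support. Every row followed here had a standard error of 0.193 in that fit, so its own spread between embryos did not count. In the main fit the standard error was 0.44 for feature 15384 and 0.11 for Ajap1. With no replicate block, 1044 features had an unadjusted p under 0.05, 653 higher and 391 lower, and the block changed no call. Leaving out each replicate in turn gave 47 to 72 features with a mean fold above 1.5. The sign of 7 small differences turned. With single replicates left out, Taok3 ranged from -0.14 to 0.0306, Syt13 from -0.45 to 0.10, Zfp800 from -0.45 to 0.22, Pgcp from -0.0443 to 0.26, Secisbp2l from -0.18 to 0.43, Tmc1 from -0.38 to 0.0712 and Kpna3 from -0.14 to 0.33. Kpna3 was at -0.0121 with arrays centred on their median. The cause was not tested. With a tolerance of 0.1, 26 probes had a single row, 25 of them the rows named here.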

Other observations

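The limb differences of CS16 embryos 2 and 3 correlated at 0.35 across the 12656 features, and those of embryos 1 and 4 at 0.24. Features are no independent replicates, and no test was made. The correlation was -0.19 between embryos 2 and 4, -0.16 between 3 and 4, -0.04 between 1 and 3, and 0.04 between 1 and 2. With quantile normalization, chosen after the data were seen, these values were 0.29, 0.25, -0.15, -0.12, -0.08 and 0.02. Each difference holds 2 arrays of 1 embryo and 1 labelling batch, which cannot be told apart.

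Features past a 1.5-fold limb difference leaned to the FL in embryos 1 and 4, with 394 higher and 166 lower and with 338 and 186, and to the HL in embryos 2 and 3, with 97 and 391 and with 233 and 537. After quantile normalization the counts were 221 and 180 in embryo 1, 119 and 212 in embryo 2, 218 and 410 in embryo 3 and 205 and 232 in embryo 4. The SD of the ratios over features was larger on the HL array in embryos 1 to 3 (0.80 to 0.82, against 0.70 to 0.78 on the FL array) and smaller in embryo 4 (0.74 against 0.79).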
